A study of Mus musculus with 4 samples.

Results

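The 10 genes described here are Trp53, which encodes the transcription factor p53, and 9 genes known as its regulators or its targets in growth arrest: Mdm2, Cdkn1a, Btg2, Ccng1, Plk2, Zmat3, Sesn1, Phlda3 and Trp53inp1. They were taken by symbol from tables of 25239 gene symbols, and all 10 passed the filter on low counts. Polyadenylated RNA came from 4 libraries of mouse embryonic stem cells, all of them of the genotype Ogt fl/fl, in which loxP sites flank part of Ogt. Ogt encodes O-GlcNAc transferase, which attaches N-acetylglucosamine to proteins of the nucleus and cytoplasm. The Ogt iKO (induced knockout) group held 2 libraries from cells kept for 6 days in 4-hydroxytamoxifen (4-OHT), a ligand of tamoxifen-dependent recombinases (the labels do not name the recombinase or its promoter), and the control group held 2 libraries from cells of that genotype kept without 4-OHT. Both groups grew with LIF on feeder fibroblasts that had been treated with mitomycin C, and the labels describe a sort of viable cells meant to remove the feeders. They assign CD90.2, the product of Thy1, to mark the stem cells and CD326, the product of Epcam, to exclude the fibroblasts, whereas Thy1 is commonly used as a fibroblast marker and Epcam as a stem cell marker, so which cells were kept by the sort is uncertain. Thy1 stood at 25.6 and 8.90 CPM in Ogt iKO and 15.6 and 15.7 CPM in control (in counts per 1000000), and Epcam at 280.4 and 287 CPM against 347 and 307 CPM. In the 4-OHT cultures cells positive for yellow fluorescent protein were also selected, so that selection, 4-OHT itself and loss of Ogt cannot be told apart in this design. The labels do not say whether replicates were separate cultures, so p-values measure the spread between these libraries, which may be technical.

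Library totals ran from 14668489 to 16504204 counts. Ogt, on chromosome X from 101640060 to 101684351 (GRCm38), gave 437 and 389 counts with 4-OHT and 2963 and 3108 without, so that 12.9% of the control level was left. The spread between replicates exceeded counting noise, since chi-square over its degrees of freedom came to 7.04 for Ogt iKO and 4.25 for control. All 20 fibroblast markers examined had counts in every library, and their summed level was 4285 CPM (counts per 1000000 counts, with totals scaled by the trimmed mean of M-values, TMM) in Ogt iKO replicate 1, against 1725 CPM in Ogt iKO replicate 2 and 1771 and 1952 CPM in the controls. The labelled cell type had its defining markers: Pou5f1 stood at 532 CPM in Ogt iKO and 872 CPM in control, and all 12 stem cell markers had counts in every library.

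In unstressed cells p53 is made continuously and destroyed quickly, because MDM2 attaches ubiquitin to it. When DNA is damaged or other stress signals arrive, p53 escapes MDM2, accumulates as protein and switches on genes that halt the cell cycle, repair DNA or start apoptosis. Several targets, MDM2 among them, feed back on p53. Embryonic stem cells are known for abundant p53 and for a weak arrest before DNA replication, and p53 activity in them is linked to loss of the pluripotent state. The amount and activity of the p53 protein were not measured here.

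p53 binds DNA at a palindromic decamer, usually present as a pair. Sequences of the 250 bases before annotated start sites were taken from RefSeq (GRCm38.p6) and held 10 windows for 8 of the 10 genes. The decamer, searched on both strands with no mismatch, was found before a start of 5 of these 8 genes (Trp53, Mdm2, Cdkn1a, Ccng1 and Sesn1). That is 5 of the 10 windows, against 7.13% of all 32851 windows of this length. The genes were listed as p53 and its known regulators and targets, so an excess could be foreseen. The windows of the background were not limited to genes expressed here. The stretches with these matches are shown as sequence only. Whether p53 binds any of them in these cells, or has a part in the changes, was not tested. Capitals mark the decamers, each stretch is on the strand of its gene, and none of the printed bases lies under an annotated exon.

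Cdkn1a: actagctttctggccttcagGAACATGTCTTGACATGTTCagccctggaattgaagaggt
Ccng1: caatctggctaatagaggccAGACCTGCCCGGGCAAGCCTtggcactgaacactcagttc
Mdm2: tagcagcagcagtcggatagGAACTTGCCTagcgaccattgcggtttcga
Sesn1: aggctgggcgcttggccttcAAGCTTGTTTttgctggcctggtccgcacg
Trp53: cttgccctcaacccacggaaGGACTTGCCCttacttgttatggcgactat

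The Cdkn1a stretch is chr17:29090908-29090967 on the plus strand and lies before the first of 2 annotated starts, which are 2790 bases apart. Its adjacent decamers, together carrying 1 mismatch, lie from -51 to -32 relative to the first start and end 2822 bases before the second. Another decamer without mismatch, cut short at the left edge of the printed stretch, lies from -73 to -64. With the decamer from -51 to -42 it forms a second, spaced pair, from -73 to -42, which carries 0 mismatches. The Ccng1 stretch, chr11:40755442-40755501 on the minus strand, also holds adjacent decamers with 1 mismatch. Such a pair, with 0 to 13 bases between the decamers and at most 1 mismatch in each, was found in 2.20% of all windows. The others are single decamers, before Mdm2 (chr10:117710915-117710964, minus strand), before the second of 2 Sesn1 starts (chr10:41887246-41887295, plus strand) and before Trp53 (chr11:69580264-69580313, plus strand). Before the starts of Btg2, Plk2 and Phlda3 no decamer stood in the window. The CCAAT box (CCAAT, either strand) was in 6 of the 10 windows, against 33.9% of all windows, and the GC box (GGGCGG, either strand) in 7 of 10, against 32.7%. A match in these letters describes sequence and shows no binding.

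After 6 days of 4-OHT, Trp53 mRNA was lower and the mRNAs of the other 9 genes were higher. The rises ran from 1.15-fold for Sesn1 to 3.53-fold for Cdkn1a, and the level of Trp53 was 64.8% of control. By the quasi-likelihood test of edgeR, all 10 had an adjusted p under 0.05 (Benjamini-Hochberg, over 14525 genes), 9 higher and 1 lower. The background was high: 65.3% of all tested genes passed, 33.2% higher and 32% lower. In all 10 genes the groups did not overlap, as in 83.2% of tested genes. The median log2 fold change was 1.27 over the 10 genes and 0.024 over all tested genes. The 10 genes were chosen with earlier results of these data known. In the bulk RNA used here, a change in the share of cells that make a transcript and a change in the amount per cell cannot be told apart.

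**Figure D1:**
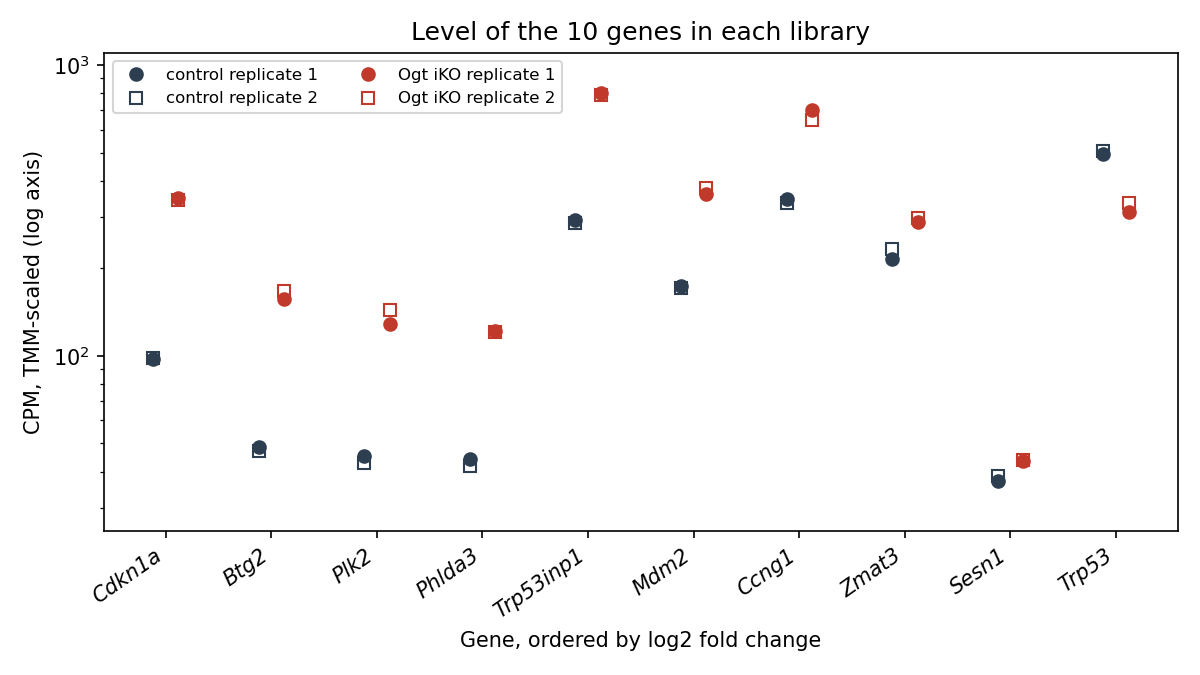
CPM (TMM-scaled, log axis) of each gene in each library, with genes ordered from the largest rise to the fall. Circles are replicate 1 and squares replicate 2, dark for control and red for Ogt iKO. For all 10 genes the groups do not overlap: Cdkn1a goes from 97.5 and 98.4 CPM to 348 and 343 CPM, while Trp53 goes from 494 and 506 CPM down to 313 and 335 CPM.

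Trp53 lies on chromosome 11 from 69580359 to 69591873. It had 494 and 506 CPM in the controls and 313 and 335 CPM in the Ogt iKO libraries. Both Ogt iKO libraries were below both controls, and the log2 fold change was -0.63 (SE 0.059, 95% interval -0.76 to -0.49, adjusted p 3.87e-05, edgeR). A pseudogene of Trp53 is annotated, and how reads that match several loci were counted is not given in the sources used here.

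Mdm2, the ubiquitin ligase that limits p53 and is itself a p53 target, lies on chromosome 10 from 117688875 to 117710758. Its level went from 175 and 172 CPM in control to 361 and 379 CPM in Ogt iKO. That is a log2 fold change of 1.10 with an SE of 0.057 (adjusted p 2.36e-06, edgeR), larger than that of 86.3% of tested genes. Counted within each library, where no scaling enters, there were 0.353 and 0.339 Mdm2 counts per Trp53 count in control and 1.15 and 1.13 in Ogt iKO.

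Ccng1 and Trp53inp1 are p53 targets whose products act back on the pathway. Cyclin G1, from Ccng1 (chromosome 11 from 40748552 to 40755311), brings a phosphatase to MDM2. Its mRNA went from 347 and 336 CPM to 702 and 647 CPM, and both Ogt iKO libraries were above both controls. The log2 fold change of Ccng1 was 0.98 with an SE of 0.062 (adjusted p 5.58e-06, edgeR). TP53INP1, from Trp53inp1 (chromosome 4 from 11156431 to 11174379), promotes phosphorylation of p53 and takes part in autophagy. Trp53inp1 went from 294 and 287 CPM to 802 and 788 CPM, a log2 fold change of 1.45 with an SE of 0.056 (adjusted p 7.24e-07, edgeR). Its gain of 504 CPM was the largest absolute gain among the 10 genes, followed by 333 CPM for Ccng1 and 248 CPM for Cdkn1a, without regard to transcript length.

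Cdkn1a, on chromosome 17 from 29090976 to 29100727, encodes p21, the inhibitor of cyclin-dependent kinases through which p53 stops the cell cycle. It had 97.5 and 98.4 CPM in control and 348 and 343 CPM in Ogt iKO. The replicates of each group lay close together and the groups far apart. The log2 fold change of 1.82 (SE 0.056, 95% interval 1.69 to 1.95, adjusted p 2.86e-07, edgeR) was the largest of the 10, and 5.96% of all tested genes rose more on that scale. Counts of Cdkn1a per count of Trp53 were 0.197 and 0.195 in control and 1.11 and 1.03 in Ogt iKO. An annotated gene of the opposite strand, AC167363.2, lies over 7.68% of the exon length of Cdkn1a, and the strand counted is not given in the sources used here.

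Likeness to Cdkn1a was measured over 11228 genes whose log2 CPM averaged 2 or more. Those whose centred log2 CPM over the 4 libraries lay nearest by Euclidean distance were Serf1 (0.070), Tapbp (0.070) and Aga (0.074). Their log2 fold changes were 1.80, 1.76 and 1.90. With 4 libraries in 2 groups, such likeness holds little more than the size of the fold change. Of the 10 genes, Btg2 was nearest to Cdkn1a (0.114), and Phlda3 and Trp53inp1 were nearest to each other (0.054).

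Btg2 and Plk2 also restrain proliferation. BTG2, from chromosome 1 (134075170 to 134079120), recruits the deadenylases that shorten mRNA tails. Btg2 went from 48.8 and 47.3 CPM to 157 and 168 CPM, a log2 fold change of 1.75 with an SE of 0.066 (adjusted p 7.05e-07, edgeR). PLK2, from chromosome 13 (110395046 to 110400844), is a polo-like kinase with a role in centriole duplication. Plk2 went from 45.2 and 42.9 CPM to 129 and 144 CPM, a log2 fold change of 1.63 with an SE of 0.078 (adjusted p 1.58e-06, edgeR). For both genes the lower of the Ogt iKO libraries was far above the higher of the controls.

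Phlda3 (chromosome 1 from 135766119 to 135769136) encodes a small protein that competes with the kinase AKT for membrane lipids. Its level went from 44.3 and 41.7 CPM in control to 122 and 120 CPM in Ogt iKO, a log2 fold change of 1.49 with an SE of 0.069 (adjusted p 1.27e-06, edgeR). The 5 genes Cdkn1a, Btg2, Plk2, Phlda3 and Trp53inp1 thus had log2 fold changes between 1.45 and 1.82, and the 95% interval of each overlapped that of its neighbour in this order.

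Zmat3 and Sesn1 moved least. ZMAT3 (chromosome 3 from 32334792 to 32366014) is a zinc-finger protein that binds RNA. Zmat3 went from 216 and 233 CPM to 289 and 297 CPM, a log2 fold change of 0.38 with an SE of 0.060 (adjusted p 6.01e-04, edgeR). Sestrin 1, from Sesn1 (chromosome 10 from 41809935 to 41908424), restrains the growth kinase complex mTORC1. Sesn1 had 37.2 and 38.6 CPM in control and 43.5 and 43.8 CPM in Ogt iKO, and the log2 fold change of 0.20 (SE 0.077, 95% interval 0.027 to 0.38) had an adjusted p of 0.0444 (edgeR). That call was lost with DESeq2 (adjusted p 0.280) and in each of the fits that left out 1 library (adjusted p 0.0790 to 0.202), so for Sesn1 the count of 9 higher genes becomes 8.

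**Figure D2:**
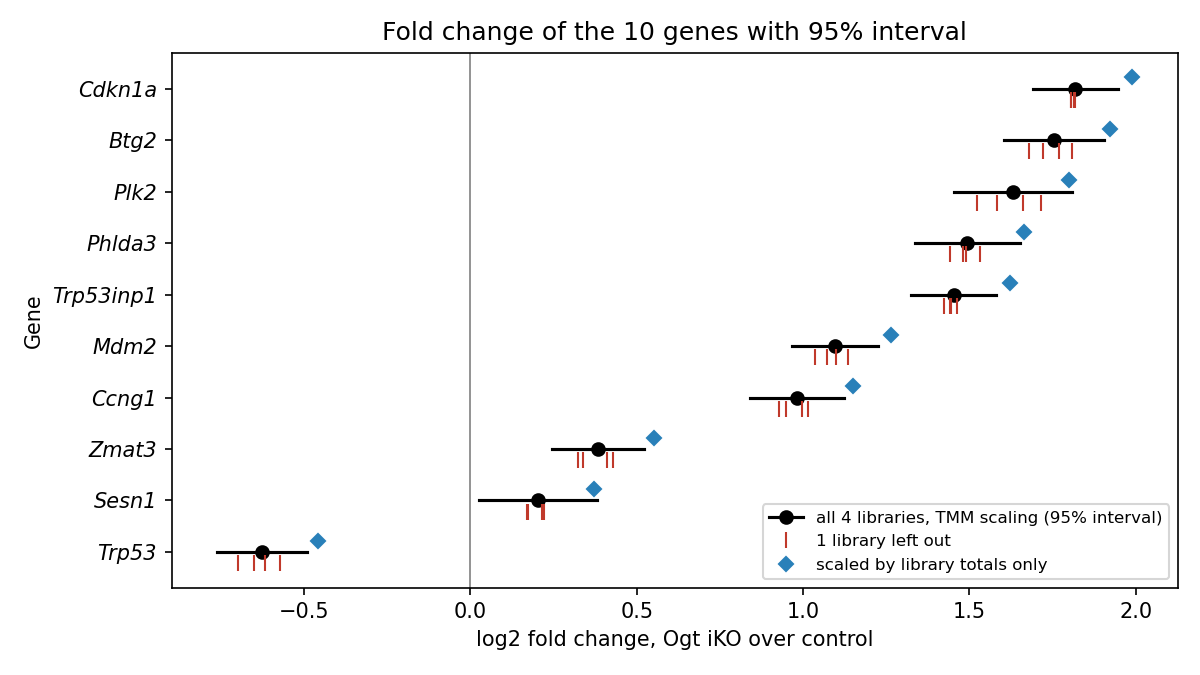
Log2 fold change (Ogt iKO over control) of each gene. Black points and lines are the fit of all 4 libraries with its 95% interval, red ticks the fits with 1 library left out, and blue diamonds the fit scaled by library totals only. Trp53 stays below 0 in each of these fits (-0.70 to -0.46), and the interval of Sesn1 comes closest to 0 (0.027).

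Scaling by library totals alone raised the median over all genes from 0.024 to 0.19 (log2) and the values of the 10 genes with it. It gave 6116 genes higher and 3282 lower, against 4827 and 4651 with TMM scaling. Under that scaling Trp53 still fell (-0.46), Cdkn1a rose by 1.99 and Sesn1 by 0.37. With any 1 library removed, Trp53 ran from -0.70 to -0.57, Cdkn1a from 1.80 to 1.82, Btg2 from 1.68 to 1.81, Plk2 from 1.52 to 1.71 and Mdm2 from 1.04 to 1.14.

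Levels between genes were compared per kilobase of exon. In control the order of CPM per kilobase was Trp53 (124), Ccng1 (97.2), Trp53inp1 (44.9), Mdm2 (34.1), Phlda3 (27.6), Cdkn1a (27.6), Zmat3 (19.6), Btg2 (17.5), Plk2 (9.80) and Sesn1 (9.52). In this order Phlda3 overlapped Cdkn1a between libraries and Plk2 overlapped Sesn1, while the other neighbours did not overlap. In Ogt iKO the order became Ccng1 (192 ± 10.9 CPM per kilobase, SD, n = 2), Trp53inp1 (123 ± 1.59), Cdkn1a (97.3 ± 0.870), Trp53 (80.1 ± 3.79), Phlda3 (77.7 ± 0.693), Mdm2 (72.7 ± 2.48), Btg2 (59.1 ± 2.86), Plk2 (30.4 ± 2.39), Zmat3 (25.6 ± 0.528) and Sesn1 (10.96 ± 0.0673). Here Trp53 and Phlda3 overlapped and no other neighbours did. Trp53 thus went from the first to the fourth place and Cdkn1a from the sixth to the third. The 10 genes together took 0.169% and 0.171% of all counts in control and 0.347% and 0.345% in Ogt iKO.

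Summed levels of the 10 genes were 3264 CPM in each of the Ogt iKO libraries and 1798 and 1802 CPM in the controls. The summed fibroblast markers were highest in Ogt iKO replicate 1 and lowest in Ogt iKO replicate 2. Of the 20 markers 7 were higher (35%, against 33.2% of all tested genes) and 0 lower, and in these 7 both Ogt iKO libraries were above both controls. Those with the smallest adjusted p were Tagln (log2 fold change 2.60), Acta2 (1.72), Twist1 (1.45) and Pdgfrb (1.61). Without Ogt iKO replicate 2 there were 19 higher, and without Ogt iKO replicate 1 there were 7 higher and 12 lower. The collagen gene Col1a1 stood at 904 and 180 CPM in Ogt iKO and at 294 and 314 CPM in control, and it was not called. Col1a2, Col3a1, Thy1, Postn, Lum and Dcn were not called either. Like Col1a1, they were above both controls in Ogt iKO replicate 1 and below both in Ogt iKO replicate 2. In all, 13 of the 20 markers were not called. Without Ogt iKO replicate 1, where the median log2 fold change of the markers was -0.54, the log2 fold changes were 1.82 for Cdkn1a, 1.81 for Btg2, 1.71 for Plk2, 1.49 for Phlda3, 1.45 for Trp53inp1, 1.14 for Mdm2, 0.93 for Ccng1, 0.41 for Zmat3 and -0.57 for Trp53. Sesn1 had 0.22 in that fit and did not pass (adjusted p 0.0790, edgeR). Stem cell markers moved with the groups, at 2939 and 3309 CPM in Ogt iKO against 5456 and 5405 CPM in control, with 11 of 12 lower, against 32% of all tested genes. Those with the smallest adjusted p were Sox2 (-1.59), Klf4 (-1.82), Nanog (-1.47) and Fgf4 (-1.49). Both marker lists were chosen with earlier results of these data known, so their contrasts with all tested genes are no independent evidence. The part of the fibroblast and stem cell markers in the values of the 10 genes was not tested.

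**Figure D3:**
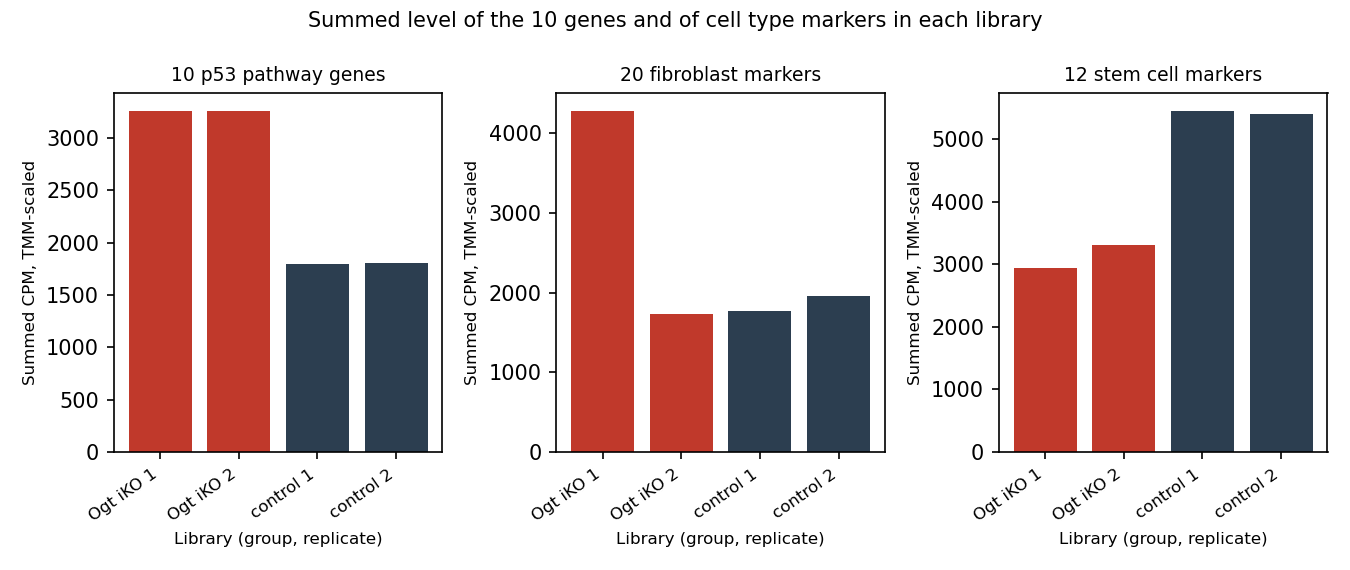
Summed CPM (TMM-scaled) per library of the 10 genes (left), 20 fibroblast markers (middle) and 12 stem cell markers (right), as bars from 0, red for Ogt iKO and dark for control. The 10 genes reach 3264 CPM in both Ogt iKO libraries, while the fibroblast markers reach 4285 CPM in the first and 1725 CPM in the second.

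With TMM scaling, genes that act on p53 were more often lower than higher by count, but not with totals-only scaling. Of 25 such regulators outside the 10 genes, 5 were higher and 13 lower (against 33.2% higher and 32% lower among all tested genes), with a median log2 fold change of -0.24. Cdkn2a, which encodes the kinase inhibitor p16 and, from another reading frame, the MDM2 inhibitor p19ARF, rose most. It went from 12.3 and 11.7 CPM to 55.8 and 57.6 CPM, a log2 fold change of 2.24 with an SE of 0.087 (adjusted p 7.24e-07, edgeR), and counts per gene do not separate its 2 products. The other rises were those of Crebbp, an acetyltransferase for p53 (0.47), Ppm1d, a phosphatase that switches p53 signalling off (0.38), the ubiquitin ligase gene Rchy1 (0.33) and Mdm4, a partner of MDM2 (0.24). Mdm4 did not pass without control replicate 1 (adjusted p 0.158, edgeR), with DESeq2 (0.0627) or with edgeR's glmTreat against a fold of 1.2 (0.522), and Rchy1 did not pass with glmTreat (adjusted p 0.146).

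Among the falls, Usp10, which encodes a deubiquitinase of p53, had a log2 fold change of -1.11, the checkpoint kinase gene Chek2 -0.97 and the mitotic kinase gene Aurka -0.74. Usp10 went from 299 and 290 CPM to 135 and 138 CPM and Chek2 from 84.0 and 82.8 CPM to 41.5 and 43.8 CPM. With totals-only scaling the counts for the 25 regulators were 9 higher and 9 lower.

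Outside the 10 genes, 38 of 39 other listed p53 targets were tested, of which 18 were higher and 8 lower, with a median log2 fold change of 0.33. That is 68.4% past the threshold, close to the 65.3% of all tested genes, of which 33.2% were higher and 32% lower. The median was 0.21 without control replicate 1, and totals-only scaling gave 22 higher, 4 lower and a median of 0.50. Of the apoptosis targets, 10 of 13 were higher and 1 lower (84.6% past the threshold, against 65.3% of all tested genes), with a median of 0.69. The target lists were chosen with earlier results of these data known, so this contrast is no independent evidence. Steap3 rose by 1.56 on the log2 scale, Perp, for a membrane protein of desmosomes, by 1.43, Eda2r, for a receptor of the tumour necrosis factor family, by 1.42 and Apaf1, for the core of the apoptosome, by 0.96. Siva1, which encodes a pro-apoptotic protein, fell by 1.07.

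Of the targets in DNA repair and metabolism, 3 of 13 were higher and 4 lower, with a median log2 fold change of 0.079. These shares lay below or near those of all tested genes (33.2% higher and 32% lower). Lpin1, for an enzyme of lipid synthesis, rose by 1.55, Polk, for a translesion polymerase, by 0.97 and Ddit4, for an inhibitor of mTORC1, by 0.67, while Gadd45a, a damage-response gene, fell by 0.91. The remaining targets of arrest and other roles gave 5 higher and 3 lower of 12 (median 0.15), or 66.7% past the threshold, near the 65.3% of all tested genes. Abcb1a, for a drug efflux pump, rose by 0.92, Sfn, for the 14-3-3 sigma protein, by 0.76 and Ptp4a3, for a phosphatase, by 0.69. The receptor gene Epha2 fell by 1.02, Rprm by 0.62 and Ninj1 by 0.60. Rprm did not pass with DESeq2 (adjusted p 0.117) or, in edgeR, with totals-only scaling (0.0789), with glmTreat (0.0634), without Ogt iKO replicate 1 (0.0765) or without control replicate 1 (0.169), and Ninj1 did not pass without control replicate 2 (adjusted p 0.0676, edgeR).

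**Figure D4:**
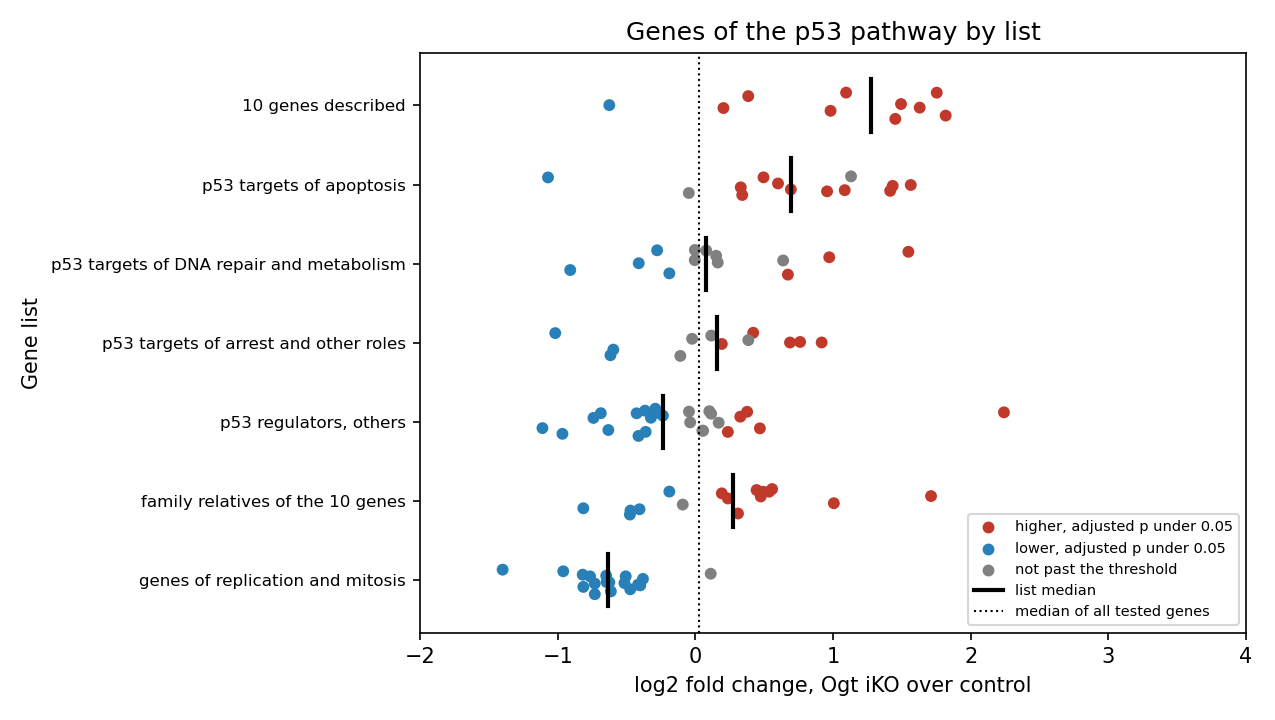
Log2 fold change (Ogt iKO over control) of each tested gene, one row per list, in red where higher, blue where lower and grey where not past an adjusted p of 0.05. Thick bars are list medians (1.27 for the 10 genes, -0.64 for the genes of replication and mitosis) and the dotted line is the median of all tested genes (0.024).

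Relatives of the 10 genes by family gave 10 higher and 5 lower of 16 tested, with a median log2 fold change of 0.27, against 33.2% higher and 32% lower among all tested genes. Without control replicate 1 these were 6 higher and 3 lower, and without control replicate 2 there were 6 higher. DESeq2 gave 5 higher and 5 lower, and totals-only scaling 10 higher and 3 lower. Of the p53 family, Trp73 rose by 1.01 and Trp63, with 6 and 13 counts in the Ogt iKO libraries and 1 and 2 in the controls, was not tested. The p21 family was split: Cdkn1c, for p57, rose by 1.71 and went from 27.3 and 19.8 CPM to 75.3 and 79.0 CPM, while Cdkn1b, for p27, fell by 0.48. Relatives of Btg2 rose less than Btg2 itself by value, with 0.56 for Btg1, 0.54 for Tob1 and 0.44 for Tob2. Btg3 had at most 3 counts in any library, and Btg4 had 0 counts in all 4, which allows up to 3 counts or 0.176 to 0.196 CPM.

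Polo-like kinases other than Plk2 had log2 fold changes of -0.81 for Plk1, which drives mitosis, -0.41 for Plk4 and 0.19 for Plk3. The call of Plk3 was lost with DESeq2 (adjusted p 0.217), RLE scaling (0.0648), no filter (0.0867), glmTreat (0.724) and, in edgeR, without Ogt iKO replicate 2 (0.253), control replicate 1 (0.0967) or control replicate 2 (0.250). Values for the rest were 0.47 for Ccng2, 0.31 for Sesn3, -0.19 for Sesn2, 0.49 for Phlda1, -0.47 for Phlda2 and -0.092 for Trp53inp2. Of these, Trp53inp2 was not past the threshold and turned to 0.077 with totals-only scaling and to 0.065 without Ogt iKO replicate 2. The others had adjusted p values from 0.0157 to 0.0409 in edgeR, and each was lost in at least 1 fit that left out a library. The differences between relatives were not tested.

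p21 is known to lower genes of DNA replication and mitosis through the DREAM repressor complex. Of 18 such genes, 17 were lower and 0 higher, with a median log2 fold change of -0.64, against a background of 32% lower. The list was chosen for this known role and with earlier results of these data known. The contrast with the background is therefore no independent evidence. Top2a, for the topoisomerase that untangles chromosomes, fell by 1.40, Rrm2, for a subunit of ribonucleotide reductase, by 0.96, Ccnb1, for cyclin B1, by 0.82 and Plk1 by 0.81. Kif23 had a log2 fold change of 0.11 and did not pass, but it was past the threshold as higher with totals-only scaling and without Ogt iKO replicate 1. In these genes and in Cdkn1a the same libraries were compared, and whether the changes are linked was not tested.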

How the data were processed

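The authors deposited raw counts per gene symbol for each of the 4 libraries, with 0 rows that name no gene. Per the submitters' processing notes, STAR, Picard and the build mm10 were used; versions, annotation and the strand counted are not given in the sources used here. Per the labels' protocols, libraries were stranded and made from mRNA.

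Counts were tested with edgeR 4.0.16 in R 4.3.3 (filterByExpr, TMM, quasi-likelihood test, all 4 libraries, no covariate), and called at an adjusted p (Benjamini-Hochberg) under 0.05. CPM use TMM-scaled totals. Log2 CPM for likeness had a prior count of 2. Standard errors came from the fold change and its F statistic. Positions, exon lengths and overlaps came from GENCODE M21 (GRCm38). The fit was tested on simulated data. An exact test of a single value, 2 libraries against 2, cannot give a p below 0.333. Counting limits cover counting error only.

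The members and lists were chosen with earlier results of these data known. Besides Ogt and the 10 genes, the text names, for every list, at most 4 called genes by lowest adjusted p, those called against most of the list where 5 or fewer, family relatives, and the 3 genes nearest to Cdkn1a. Beside that rule, Pou5f1, Col1a1, Col1a2, Col3a1, Postn, Lum, Dcn, Kif23, Thy1 and Epcam were chosen after their values were seen. Alternatives were relative log expression (RLE), totals-only and upper-quartile scaling, DESeq2 1.42.0, dropping the filter, keeping genes that reach a CPM of 1 in 2 or more libraries, a robust spread, the replicate block, glmTreat against a fold of 1.2, and leaving out each library.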

Additional observations from a re-analysis of the deposited data

How the results depend on the processing

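Of the 10 genes, 9 kept their direction and their call in all 13 alternatives. Sesn1 kept its direction but lost its call with RLE scaling (0.19), DESeq2 (0.18), no filter (0.19), glmTreat (0.20, adjusted p 0.659) and in the 4 fits with 1 library left out (0.17 to 0.22), so that these gave 8 higher genes. The other p53 targets lower numbered 4 with totals-only scaling and 4 with glmTreat, against 8. The other regulators higher numbered 9 with totals-only scaling and 3 with glmTreat, against 5, and those lower numbered 8 with glmTreat, against 13. Across all genes the share higher among calls moved from 50.9% to 65.1% with totals-only scaling. With the replicate number as a block, 4922 genes were higher and 4719 lower, against 4827 and 4651, and the replicate block changed no call of the 10 genes (Sesn1 adjusted p 0.0494). Same-numbered libraries deviated together only weakly (correlation 0.086 over genes), and the labels give no shared culture or day. Trp53inp2, not past the threshold, turned to 0.077 with totals-only scaling and ran from -0.30 to 0.065 with 1 library left out, where it passed without Ogt iKO replicate 1; the cause was not tested. A fit with 1 library in a group assumes that it varies like the other group. Depth limits genes of a few counts, such as Trp63.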
